A study of Mus musculus with 16 samples.

Results

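Cytosine methylation is written by methyltransferases and removed or altered by oxidation. Dnmt1 copies DNA methylation to the new strand after replication, and Dnmt3a and Dnmt3b place it at new sites. Trdmt1, the gene also called Dnmt2, has the fold of a DNA methyltransferase but methylates cytosine in tRNA, and Nsun2 methylates cytosine in tRNA and other RNAs. Tet1, Tet2 and Tet3 oxidise 5-methylcytosine, and Alyref and Ybx1 bind RNA that carries it. In the male germ line, Dnmt3a sets methylation marks in germ cells before meiosis, and Tet3 acts in the fertilised egg.

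These 10 genes were followed through the significant peaks of sperm RNA from 4 Dnmt2−/− males of the C57BL/6 strain, aged 6 to 8 months, in which the gene Trdmt1 is disrupted in every animal. Males 3 and 4 received a high-fat diet (HFD) with 21% butter after weaning at 4 weeks, and males 1 and 2 a normal diet (ND). Each male gave a library of free RNA (F) and one of DNA-bound RNA (D), the RNA released from sperm DNA by DNase, so the 8 libraries are named F1 to F4 and D1 to D4 by male. Sperm were separated from other cells by centrifugation, and there are 2 males per diet. Wild-type libraries were not analysed here, so no value below compares the mutant with a normal male. A peak was counted for a gene when it was the nearest gene in the list or when the annotation of the peak named one of its RefSeq transcripts. This gave 106 of the 159135 peaks, of which 66 were in F and 40 in D. All 10 genes were named in at least 1 list, of 21052 genes named in any.

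Peaks in an exon, an untranslated region (UTR), a promoter at the start site or a transcription end (TTS) are called transcript-class peaks and are kept apart from intron and intergenic peaks. The members had 27 transcript-class, 44 intron and 35 intergenic peaks. In free RNA these numbers were 25, 27 and 14, and in DNA-bound RNA they were 2, 17 and 21. Over all genes, the 3 classes held 20676, 17901 and 23105 of the 61893 peaks in F. In D they held 2434, 32370 and 62199 of 97242 peaks, so transcript-class peaks were also rarer in D over all genes. Of the 27 transcript-class peaks, 25 were annotated to a transcript of the member itself, and of the 44 intron peaks, 34 were. The 25 include the promoter peaks of Alyref in F1 and of Tet3 in D3. Each lay upstream of the start of the transcript it was annotated to. The other peaks were annotated to a neighbouring gene and carried the member's name as the nearest start site only.

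The lists differ in size and content. They held 10143 peaks in F3, 18709 in F4, 25406 in F1 and 7635 in F2, and 22726 in D3, 21171 in D4, 3427 in D1 and 49918 in D2. The score of a peak is read here as its tag count scaled to a common total, and on that reading 4100000 to 31100000 tags stood behind a list and the lowest peak held 6 tags in 7 lists and 14 in D2. Transcript-class peaks made up 72.4% of the annotated peaks in F1 and 16.7% in F3, against 2.26% to 3.92% in the other 6 libraries. F1 and F3 also held markers of another cell type. Transcript-class peaks were found for 22 of 22 epididymal epithelium genes in F1 and 13 of 22 in F3, and for 0 or 1 of 22 in each other library. For sperm and spermatid genes the numbers were 13 of 17 in F1 and 0 in the other 7 libraries, so markers of the labelled cell type gave such peaks in 1 library only. Leukocyte genes with such a peak numbered 5 of 15 in F1, 2 in D2, 1 each in F3, D3 and D4 and 0 elsewhere, and erythroid genes 5 of 9 in F1, 2 each in F4 and D4 and 0 elsewhere. Counted in own transcripts, F1 had 22 of 22 epididymal, 11 of 17 sperm and spermatid, 3 of 15 leukocyte and 2 of 9 erythroid genes. On that count D2 had 1 leukocyte gene and F4 had 1 erythroid gene. Over all genes the share with such a peak was 43.3% in F1 and 8.58% in F3. The part of these other cells in the results below was not tested, and in such bulk samples fewer cells of a type and less RNA per cell cannot be told apart.

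Short exon stretches from 5 of the members carry the findings on transcripts. They are shown because they lie at the centre of the members' highest transcript-class peak in F1, at the centre of their highest one in F3, and in the exon stretches that F1 and F3 had in common. Each is given 5′ to 3′ on the gene's own strand, from GENCODE transcripts on build GRCm38, with CG dinucleotides in capitals.
Ybx1 exon 7, chr4:119279080-119279109, minus strand: tcaaCGtCGgtatCGcCGaaacttcaatta
Dnmt1 exon 17, chr9:20924068-20924097, minus strand: tcattgagaagaatgtagagctctactttt
Alyref exon 5, chr11:120595049-120595078, minus strand: ggaggcagcCGgggaagaggtagaggcacc
Dnmt3a exon 2, chr12:3835162-3835191, plus strand: ccctCGcagccccagcctgcCGcctactgc
Tet3 exon 3, chr6:83403101-83403126, minus strand: actcaggaaatgagatcccccagccc
The Ybx1 stretch of 30 bases holds 4 CG dinucleotides, the Dnmt3a stretch 2, the Alyref stretch 1, and the Dnmt1 and Tet3 stretches 0.

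Within the mutant libraries, the question was which RNAs were in each fraction of sperm, and whether diet altered them. The study's design also set Dnmt2−/− beside wild-type sperm, a comparison not made here. Transcript-class peaks of the members were found in 3 of the 8 libraries. F1 held 21 of them, F3 held 4 and D3 held 2, while F4, F2, D4, D1 and D2 held 0. In F1, 7 of the 10 members had at least 1 (Nsun2, Dnmt1, Dnmt3a, Tet2, Tet3, Alyref and Ybx1), where 43.3% of all 21052 genes did. In F3, 4 of 10 had one (Dnmt1, Dnmt3a, Tet3 and Alyref), where 8.58% of all genes did. In D3, 2 of 10 had one (Dnmt3a and Tet3), where 3.65% of all genes did. The Dnmt3a peak in D3 was annotated to the neighbouring gene Dtnb. No member had one in F4, where the share of all genes was 2.54%, in F2, where it was 1.1%, in D4 with 3.15%, in D1 with 0.836% or in D2 with 6.51%. Trdmt1, Dnmt3b and Tet1 had no transcript-class peak in any of the 8 libraries.

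**Figure D1:**
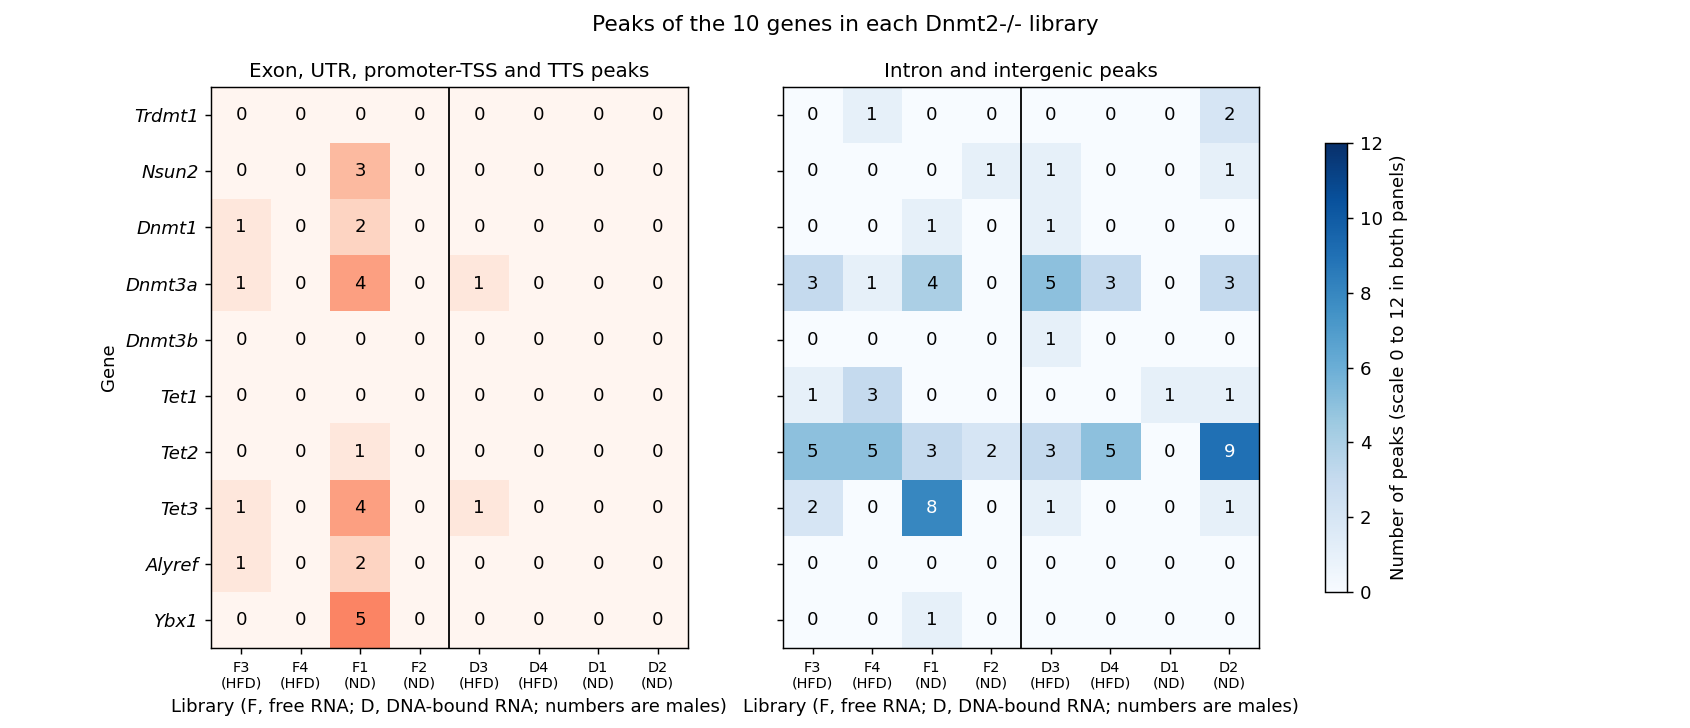
Number of peaks of each gene (rows) in each library (columns, F left of D, HFD left of ND within a fraction), with transcript-class peaks on the left and intron and intergenic peaks on the right. The 27 transcript-class peaks fall in F3, F1 and D3, whereas intron and intergenic peaks are spread over all 8 libraries.

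**Figure D2:**
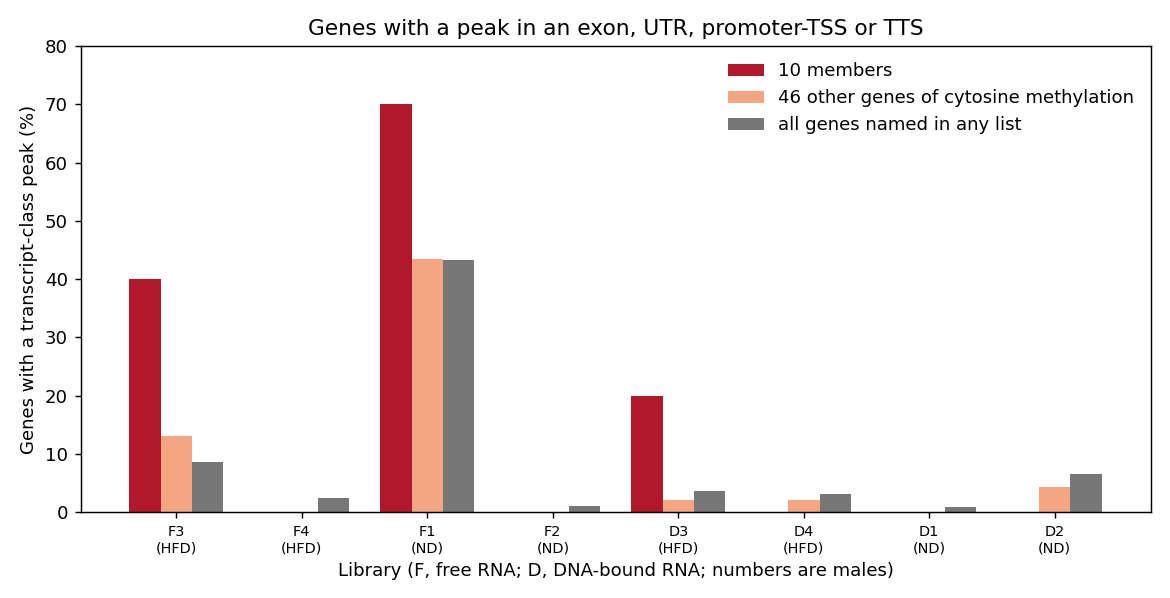
Share of genes with at least 1 transcript-class peak (%, vertical axis) in each library, for the 10 members, 46 other genes of cytosine methylation and all 21052 genes named in any list. The members reach 40% in F3, 70% in F1 and 20% in D3, and 0% elsewhere.

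Among the enzymes that methylate RNA, Trdmt1 had 3 peaks in all, and none in an exon. Of these, 1 lay in intron 2 of 10, on chr2:13532345-13532744, in D2. It scored 16.1 with 50 tags, ranked 16992 of 49918 in its list and lay 640 bases from the nearest exon. Another 2 lay upstream of the gene, at 12.4 kb in F4 with a score of 20.2 (rank 13954 of 18709) inside a B4A repeat, and at 13.3 kb in D2 with a score of 19.0 (rank 10254). They did not overlap each other. What the mutant allele lacks of Trdmt1 is not given in the sources used here, so neither the intron peak nor the absence of exon peaks checks the genotype label.

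Nsun2 had 6 peaks, 3 of them transcript-class, all in F1. An exon 13 of 19 peak scored 27.0 (18 tags, rank 15803 of 25406) and a 3′ UTR peak scored 24.0 (16 tags, rank 18140). The other, also with a score of 24.0, was annotated to the promoter of Srd5a1, the neighbouring gene that encodes a steroid 5-alpha-reductase, and lay 309 bases inside Nsun2. Its centre fell in exon 2 of Nsun2, which spans 0.285 to 0.442 kb from the start, so it may also be an exon peak of Nsun2. All 3 ranked below the 50th percentile of the F1 list, and the other 7 libraries had none. The 3 intergenic peaks of Nsun2 lay 29.0 to 41.1 kb past its start, 1 each in D3, F2 and D2, and the highest scored 73.3 in F2 (rank 755 of 7635).

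Among the DNA methyltransferases, Dnmt1 had exon peaks in both F3 and F1. In F3, the peak in exon 17 of 39 scored 67.8 with 32 tags (rank 2753 of 10143), which was the highest transcript-class peak of a member in that list. In F1, the peaks lay in exon 32 with a score of 43.4 (29 tags, rank 7047) and in exon 37 with a score of 29.9 (20 tags, rank 13584). The exon 17 peak shared no base with the other peaks, and only 52.7% of its 226 bases lay in the 119-base exon whose central stretch is printed above. All 3 carried Mir7081, a miRNA gene inside Dnmt1, as the nearest start site, so they were found through the transcript alone. Dnmt1 further had an intron 1 peak in a B1_Mus2 repeat in F1 with a score of 27.0 and an intron 10 peak in D3 with a score of 44.0 (rank 17040 of 22726).

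Dnmt3a had 5 exon or UTR peaks of its own, 4 in F1 and 1 in F3. In F1 they lay in the 3′ UTR with a score of 47.9 (32 tags, rank 5729), in exon 2 of 18 of the short transcript with 46.4 (31 tags, rank 6152), in exon 2 of 23 of the long transcript with 37.4 (25 tags, rank 9327) and in exon 4 of 23 with 27.0 (18 tags, rank 15803). The F3 peak scored 33.9 with 16 tags (rank 8086) and lay in the same exon 2 of 23, which the lists call 5′ UTR in F1 and exon in F3. The peaks of F3 and F1 shared 96 bases there, with a GC content of 71.9% and 6 CG dinucleotides. The D3 peak counted for Dnmt3a was the transcription end of Dtnb, the neighbouring gene that encodes dystrobrevin beta, 25.1 kb upstream, with a score of 58.6 (rank 13563 of 22726). Without it, no DNA-bound library had a transcript-class peak of a DNA methyltransferase. The genome also holds Dnmt3a-ps1, a processed copy of Dnmt3a on chromosome 3, which had 0 peaks, and Dnmt3aos, an antisense gene that cannot be told apart from Dnmt3a because all peaks carry the same strand.

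Dnmt3b had a single peak in the 8 lists, in its last intron (21 of 21) in D3, with a score of 107.4 and 44 tags (rank 4833 of 22726). It lay 2299 bases from the nearest exon and in no named repeat.

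Among the methylcytosine oxidases, Tet3 had 6 transcript-class peaks, all annotated to its own transcripts. Exon 3 of 11, a long coding exon of 2158 bases, held 3 of them in F1, with scores of 37.4 (rank 9327), 27.0 (rank 15803) and 24.0 (rank 18140), and 1 in F3, with a score of 57.2 and 27 tags (rank 4153 of 10143). The F3 peak and the nearest F1 peak met over 26 bases, the stretch printed above. The other 2 were a 3′ UTR peak in F1 with a score of 29.9 (rank 13584) and a promoter peak in D3 with a score of 39.1 and 16 tags (rank 18254 of 22726). That promoter peak lay 156 bases upstream of the start of the transcript it was annotated to, though inside the full span of the gene. It was the only transcript-class peak of a member's own in DNA-bound RNA. Tet2 had 1 exon peak, in exon 3 of 12 in F1, with a score of 22.5 and 15 tags (rank 19641 of 25406), the lowest of the 21 in that list. Tet1 had none, although its mRNA is the longest of the 10 at 14.4 kb.

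Of the proteins that bind methylated RNA, Ybx1 gave the highest transcript-class peak of a member in F1, while in F3 Dnmt1 did. Ybx1 had 5 peaks in F1 and 0 in the other 7 libraries. The exon 7 of 8 peak on chr4:119279010-119279179 scored 208.1 with 139 tags and ranked 465 of 25406, above 98.2% of the list, and its 170 bases held 8 CG dinucleotides. The 3′ UTR peak scored 64.4 (rank 3267), exon 5 61.4 (rank 3563), the first exon in the 5′ UTR 29.9 (rank 13584) and exon 2 28.4 (rank 14911). Per kb of mRNA, F1 held 3.07 exon and UTR peaks for Ybx1, whose mRNA has 1.63 kb. The value was 0.706 for Nsun2, 0.413 for Dnmt3a, 0.373 for Dnmt1, 0.367 for Tet3, 0.284 for Alyref and 0.109 for Tet2. It was not computed over all genes, so these values compare the members only. Ybx1 has a processed copy, Ybx1-ps2 on chromosome 6, which had 0 peaks, but reads from near-identical copies cannot be told apart in peak lists. Copies were looked for only under the members' names, so others may exist.

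Alyref, an adaptor of mRNA export, had 3 transcript-class peaks and no other. Exon 5 of 6 held a peak in both F3 and F1, with a score of 38.2 and 18 tags in F3 (rank 7224 of 10143) and 50.9 and 34 tags in F1 (rank 5077 of 25406). All 170 bases of the F1 peak lay inside the F3 peak. A promoter peak in F1 scored 40.4 (rank 8059), lay upstream of Alyref and was nearest to the start of Anapc11, the neighbouring gene. Alyref2, a near relative of Alyref on chromosome 1, had 0 peaks.

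**Figure D3:**
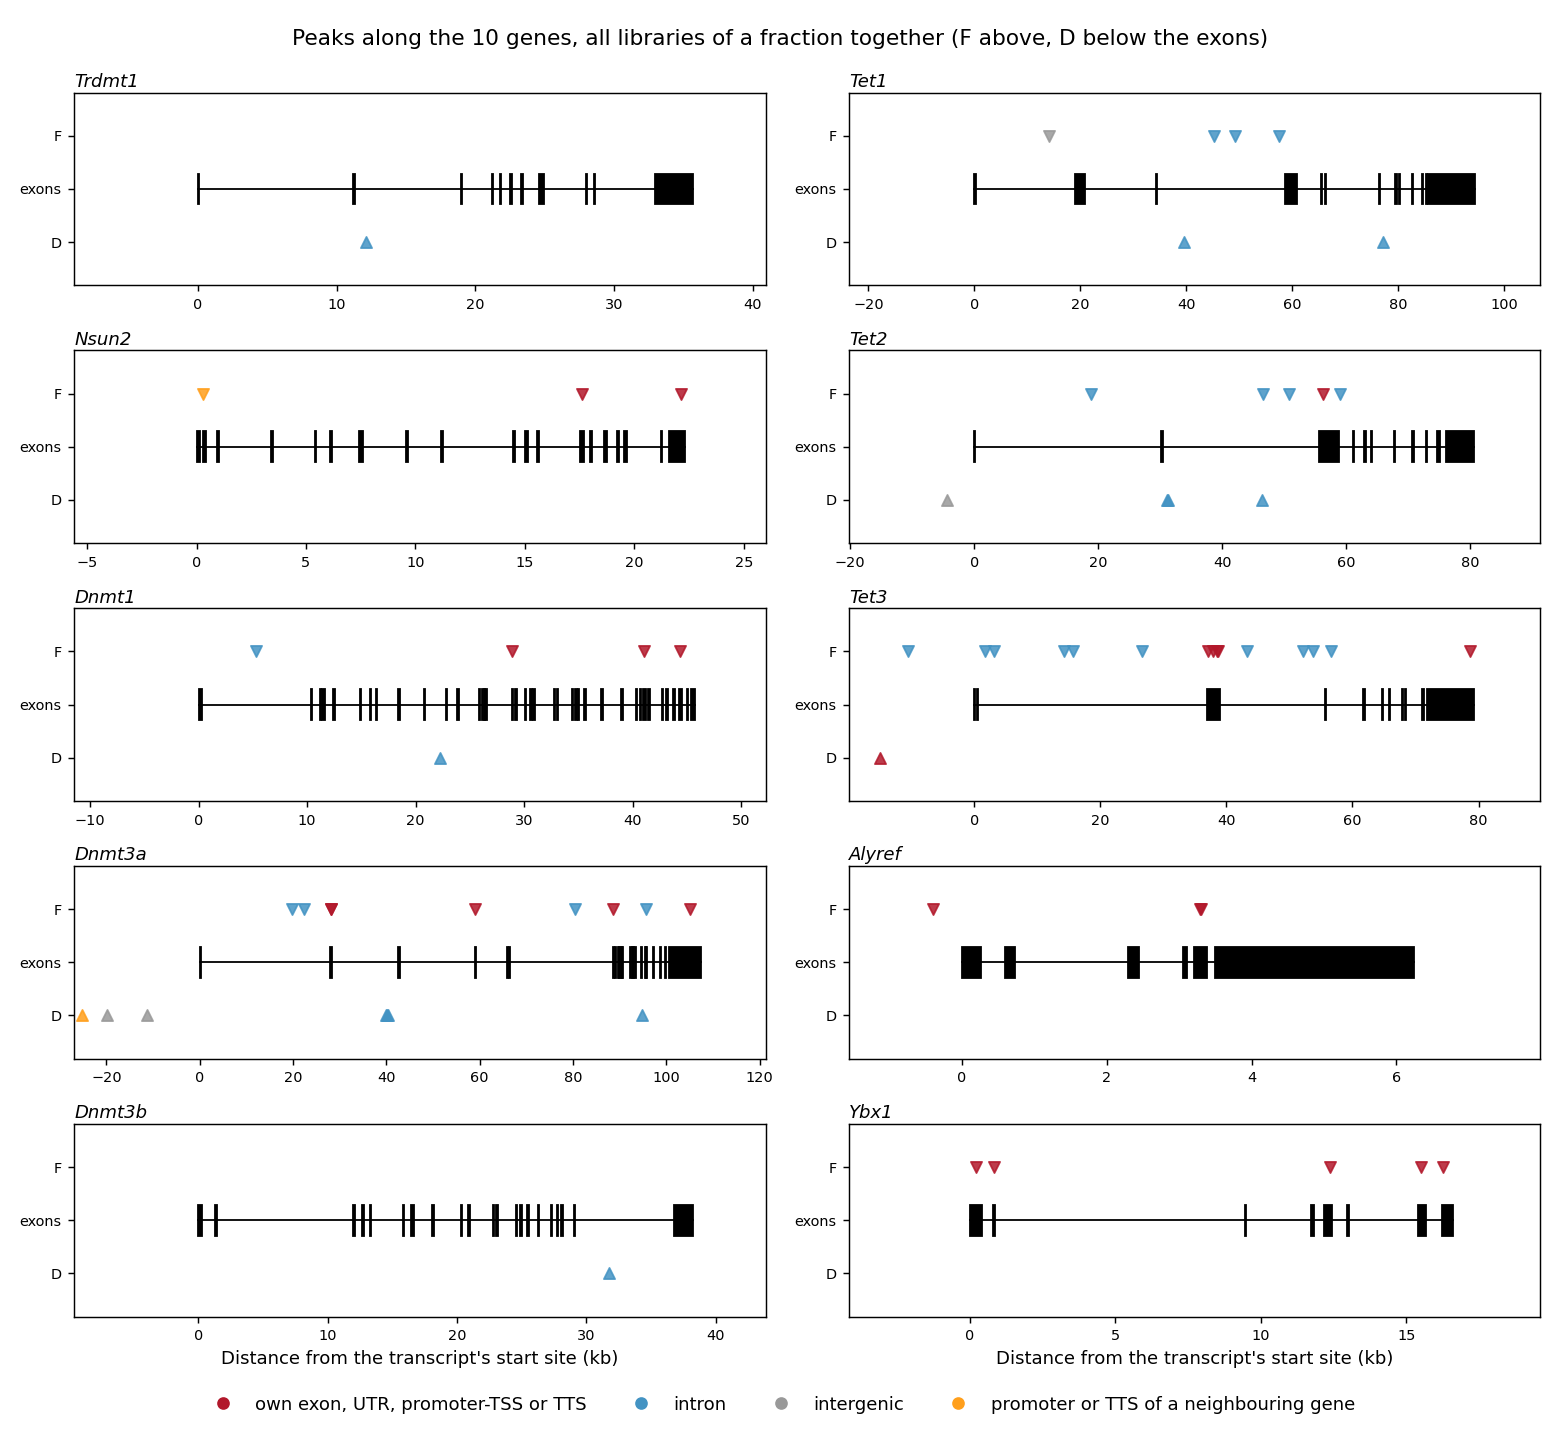
Exons (black boxes) of 1 transcript per gene against the distance from its start site (kb), with the centres of F peaks above and D peaks below, coloured by class, and peaks far from a gene left outside its panel. Own transcript-class peaks (red) lie among the F peaks at exons, apart from the Alyref promoter peak upstream of its start. The Tet3 promoter peak of D3 stands upstream because a longer Tet3 transcript starts there. The Tet1 peak drawn inside intron 1 is called intergenic in the lists, which use a shorter transcript.

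By score, the transcript-class peaks were not confined to the top of their lists. In F3 they stood at the 17.5th to 71.2nd percentile with 2 of 4 in the upper part (above the 50th percentile), in F1 at the 21.0th to 98.2nd with 10 of 21, and in D3 at the 17.8th and 38.6th with 0 of 2. The 21 peaks of F1 held 15 to 139 tags and the 4 of F3 held 16 to 32.

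**Figure D4:**
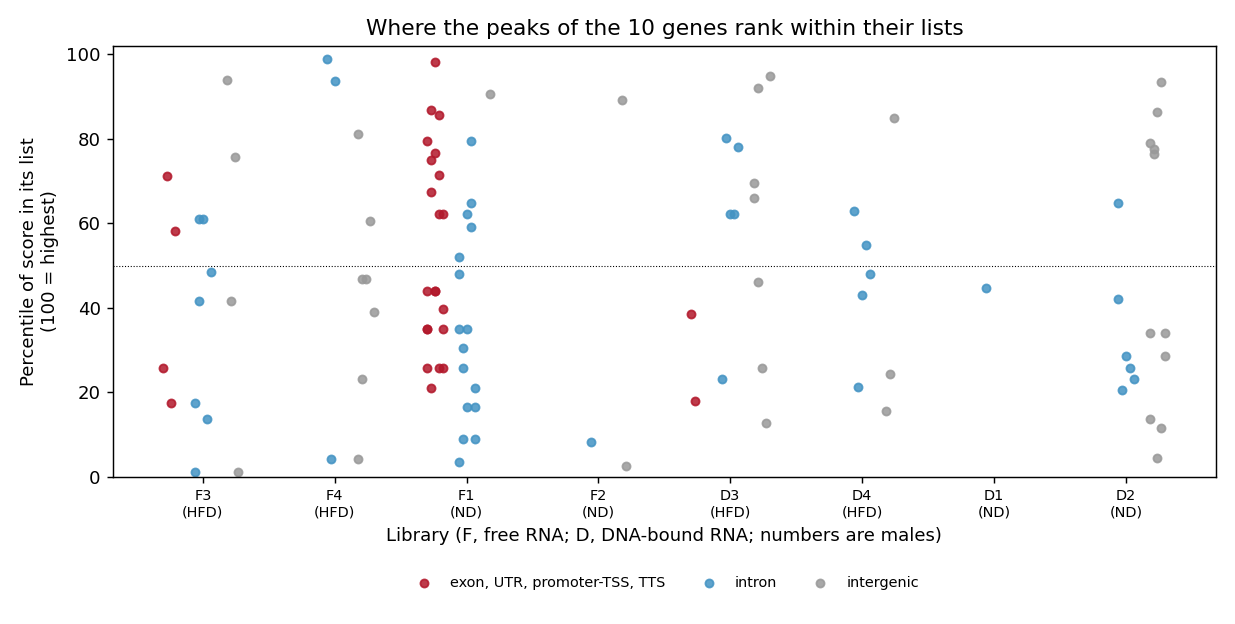
Percentile of each of the 106 peaks by score within its own list (vertical axis, 100 is the highest), by library and class. The Ybx1 exon 7 peak stands at 98.2 in F1, an L1MB8 peak near Dnmt3a at 98.8 in F4, and most transcript-class peaks lie between 17.5 and 79.4.

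The composition of the exon and UTR peaks was set beside that of all genes. In F1, the median GC content was 58.2% over 19 member peaks against 54.1% over all 15760 that could be placed on a gene model, and the ratio of observed to expected CG dinucleotides was 0.46 against 0.395. In F3, it was 58.5% over 4 member peaks against 60.2% over 1175, with ratios of 0.505 and 0.419. The median peak lay 26.6% along the mRNA in F1 for the members and 37.8% for all genes, and 19.0% against 39.8% in F3. In F3 a median of 67.9% of the width of a member peak lay in its exon against 100.0% for all genes, and the median exon length was 204 against 672 bases, whereas in F1 these were 100.0% against 98.8% and 303 against 239 bases. Within the members, CG dinucleotides ranged from 0 in both Nsun2 peaks to 20 in the Ybx1 5′ UTR peak. These medians are descriptions and were not tested.

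The fractions were compared within males on the number of transcript-class peaks per 10000 annotated peaks. Dnmt1 had 0.99 in F3, 0 in F4, 0.788 in F1 and 0 in F2, and 0 in all 4 D libraries. Over the 4 males this averaged 0.445 ± 0.52 in free RNA, with 0 in DNA-bound RNA (± is the SD). Alyref had the same values as Dnmt1. Dnmt3a had 0.99 in F3, 0 in F4, 1.58 in F1 and 0 in F2, against 0.441 in D3 and 0 in the other D libraries, and Tet3 had the same values. The mean of each was 0.642 ± 0.779 in F and 0.11 ± 0.221 in D. For Dnmt3a the D value came from the transcription end of Dtnb, and for Tet3 from its own promoter peak. For these 4 genes F was above D in 2 of 4 males and equal in the other 2, with p = 0.5 in the two-sided exact sign-flip permutation test. With 2 males equal, this test can give no smaller p. Ybx1 averaged 0.493 ± 0.986 in F, Nsun2 0.296 ± 0.591 and Tet2 0.0986 ± 0.197, each from male 1 alone, with 0 in D and p = 1 in the same exact test. Where only male 1 differs, no other p is possible. So 7 of 10 members had a higher mean in F (Nsun2, Dnmt1, Dnmt3a, Tet2, Tet3, Alyref and Ybx1), where 45.2% of all 21052 genes had a higher mean in F. Without male 1, 4 of 10 members did, where 11.5% of all genes did. With 4 males the smallest p this test can give is 0.125, so no gene could pass: 0 of 21052 genes (0%) did after Benjamini-Hochberg adjustment, and 0 had an unadjusted p under 0.05.

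HFD and ND were compared within each fraction. In F, Dnmt1 and Alyref averaged 0.495 peaks per 10000 in HFD males and 0.394 in ND males, Dnmt3a and Tet3 averaged 0.495 in HFD and 0.788 in ND, and Ybx1 averaged 0 in HFD and 0.986 in ND. In each case the value came from 1 male of the diet, male 3 for HFD and male 1 for ND, while males 4 and 2 had 0. In D, Dnmt3a and Tet3 averaged 0.221 in HFD and 0 in ND, from male 3 alone. The Dnmt3a peak there was the transcription end of Dtnb, and the Tet3 peak was a promoter peak. With exon and UTR peaks only, the difference in D was 0 for both genes. The exact permutation test gave p = 1 for each member in F and in D, and its smallest p with 2 males per diet is 0.333. Over all genes, 0 of 21052 passed in F (0%) and 0 in D (0%), also at an unadjusted p under 0.05. Which diet was higher in F for Dnmt1, Dnmt3a, Tet3 and Alyref turned with single males.

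Intron peaks inside the members' own transcripts numbered 22 in F and 12 in D. By library there were 5 in F3, 2 in F4, 14 in F1 and 1 in F2, and 3 in D3, 3 in D4, 1 in D1 and 5 in D2. Per 100 kb of gene, over 550 kb in the 10 genes, F1 held 2.55 intron peaks against 0.425 over all 21896 protein-coding genes and 0.943 over those 5929 genes that had a peak of F1 in an exon or UTR. F3 held 0.91 against 0.366 and 0.6. In D2, the members held 0.91 against 1.42, in D3 0.546 against 0.66 and in D4 0.546 against 0.611. F1 and F3 are also the libraries with exon peaks and epididymal markers. In F, 4 of 22 of these intron peaks touched an exon of another GENCODE isoform and 13 lay in a repeat, and in D 0 of 12 and 5 of 12 did. With peaks in repeats left out, 6 remained in F1, or 1.09 per 100 kb against 0.244 over all protein-coding genes and 0.587 over genes with F1 exon or UTR peaks. In F3, 1 remained, or 0.182 against 0.132 and 0.212, so the F3 value then fell below that of the genes with F1 peaks. Tet3 alone had 8 of the 14 in F1, with scores from 15.0 to 50.9, and the highest of them lay 1.7 kb past the start in an exon of a retained-intron isoform.

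**Figure D5:**
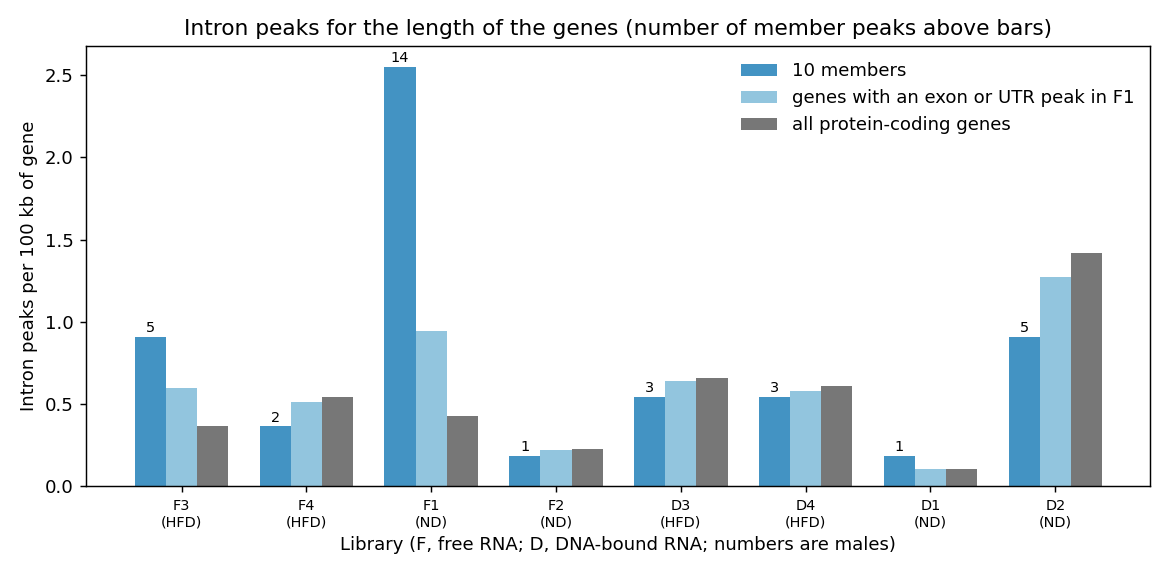
Intron peaks per 100 kb of gene (vertical axis) in each library for the 10 members, for those genes whose exons or UTRs had an F1 peak, and for all protein-coding genes, with the number of member peaks above the bars. Members are above both other sets in F3, F1 and D1, the last with 1 peak, and below both in the other 5 libraries.

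The intron and intergenic peaks with the highest score of each member are given here with their rank, because the score of 1 tag differs between lists. For Tet2, which had 25 intergenic peaks, the highest scored 161.2 in D3 (66 tags, rank 1139 of 22726), 211.9 kb upstream of the start. For Dnmt3a it was a peak in a ZP3AR satellite 11.2 kb upstream, with 146.5 in D3 (rank 1732 of 22726), while by rank an L1MB8 repeat in an intron of Dtnb stood higher, with 62.2 in F4 (rank 229 of 18709). For Tet1 it was an L1_Mus4 repeat in intron 2 with 42.0 in F4 (rank 1122 of 18709). For Tet3 it was a (GAAA)n repeat 8.3 kb upstream with 65.9 in D3 (rank 12119 of 22726), while by rank the intron 3 peak of F1 with 50.9 stood higher (rank 5077 of 25406). The only other peak of Ybx1 scored 32.9 in F1 and lay in an intron of Ppih, a neighbouring cyclophilin gene. In all, 25 of 44 intron and 20 of 35 intergenic peaks lay in a named repeat, where 56.0% and 64.8% of all such peaks did.

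Recurrence of these peaks between libraries was counted by overlap. Of the 106 member peaks, 9 overlapped a peak of another library over 50% of both peaks, a limit at which all peaks were not counted. By at least 1 base, 20 of the 106 overlapped, where 20.3% of all peaks did. Among transcript-class peaks 6 of 27 overlapped (11.6% of all), among intron peaks 7 of 44 (20.9% of all) and among intergenic peaks 7 of 35 (22.0% of all). Merged into 95 loci, 9 were found in at least 2 libraries. The 3 transcript-class loci were the exon stretches of Alyref, Dnmt3a and Tet3 above, and each joined F3 and F1, males of different diets. An L1Md_F2 repeat 130.3 kb upstream of Tet2, a young LINE-1 element of which the genome holds many copies, was in 3 free libraries, with scores of 112.4 in F3 (rank 609 of 10143), 24.9 in F4 (rank 8938) and 76.4 in F1 (rank 2362). The 3 peaks shared 161 bases. A pyrimidine-rich tract in intron 2 of Dnmt3a was in 3 DNA-bound libraries, though the outer peaks did not meet. Its scores were 83.0 in D3 (34 tags, rank 8256 of 22726), 60.7 in D4 (25 tags, rank 11913 of 21171) and 10.3 in D2 (32 tags, rank 38824 of 49918). The (GAAA)n repeat near Tet3 had 65.9 in D3 (27 tags, rank 12119 of 22726) and 11.9 in D2 (37 tags, rank 32463 of 49918). A (CA)n repeat in intron 2 of Tet2 had 65.6 in D4 (27 tags, rank 10876 of 21171) and 10.6 in D2 (33 tags, rank 37882). A region 198.3 kb from Tet2 had 34.2 in D3 (14 tags, rank 19472) and 25.1 in D2 (78 tags, rank 3119). The score of 1 tag differs between lists, so these scores do not order the libraries. A single locus joined the fractions, a (CA)n repeat in an intron of Dtnb. It had 33.9 in F3 (16 tags, rank 8086 of 10143) and 12.9 in D2 (40 tags, rank 28139 of 49918).

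Other genes of cytosine methylation were taken from 6 lists of 46 genes, of which 40 were named in any library. By the same rule, 6 of 46 had a transcript-class peak in F3, 0 in F4, 20 in F1 and 0 in F2, and 1 in D3, 1 in D4, 0 in D1 and 2 in D2. The count of 20 in F1 is near the 43.3% of all genes with such a peak there, and in F3 the share of all genes was 8.58%. Among readers of methylcytosine such a peak was found for 4 of 12 in F3 and 10 of 12 in F1 and 0 in the other 6 libraries. Zbtb4, a zinc-finger protein that binds methylated DNA, scored up to 78.4 in F3 (rank 1882 of 10143) and 50.9 in F1 (rank 5077 of 25406). Srsf2, a splicing factor, scored up to 55.1 in F3 (rank 4334) and 67.4 in F1 (rank 2990). Mbd2, a methyl-CpG-binding protein, scored up to 59.4 in F3 (rank 3764) and 35.9 in F1 (rank 9947). Of the cofactors, Uhrf2 scored 86.9 in its 5′ UTR in F3 (rank 1354) and 31.4 in its 3′ UTR in F1 (rank 12799). Dnmt3l, the catalytically inactive partner of Dnmt3a in germ cells, had an exon 8 peak in D4 with 97.2 (rank 5390 of 21171), and its D3 peak with 85.5 was the transcription end of Aire. The highest score of these lists was 137.7 in F1, in exon 6 of Mat2a, which makes the methyl donor S-adenosylmethionine (rank 866). Among the other RNA cytosine methyltransferases 1 of 6 was counted, Nop2 in F1 with up to 79.4, but all its 7 peaks lay in Chd4, its neighbour. Counting own transcripts only, 6 of 46 genes remained in F3, 18 in F1, 0 in D3, 1 in D4 and 2 in D2.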

How the data were processed

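The data are peak lists of sperm RNA from 4 Dnmt2−/− males, 1 list per library and 8 in all. The authors trimmed reads with cutadapt and Trimmomatic 0.36, aligned them with Hisat2 to GRCm38, and called peaks in each library on its own with HOMER 4.9 (local region of 10000 bases, 4-fold over it, local Poisson p of 0.0001, false discovery rate of 0.001), then annotated them. FastQC and Salmon are also named in the submitters' processing notes. The deposited score is a signal whose unit is not stated. It was read as the tag count scaled to a total of 10000000, since in every list 100% of scores under 100 fell within 0.2 tags of a whole number of equal steps, and it was compared by rank within a list, except that the highest other peak of a member was taken by score over all lists. Depth therefore limits what is seen: a transcript under the lowest tag number of a list gives no peak. On this reading D2 had 31100000 tags and D1 13200000, each with 0 transcript-class peaks of the members. F1 had 6680000 tags with 21 such peaks, and F4 6430000 with 0. F3 had 4720000 tags with 4, F2 4640000 with 0, D4 4120000 with 0 and D3 4100000 with 2. The part of depth in these counts was not tested. No column of values was left unused (0), and 8 libraries of wild-type sperm were not used here.

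Analysis used scipy 1.17.1, numpy 2.4.6 and pandas 2.3.3 under Python 3.11.15, with matplotlib 3.10.9 for figures. RefSeq transcripts were assigned to genes from the lists themselves and the RefSeq table of GRCm38.p6. Exon sequences and positions came from GENCODE M21 (GRCm38). The F and D libraries of a male pair by the animal, so fractions were compared by the exact sign-flip test within males (16 sign patterns), and without the block over 70 splits. Diets were compared over 6 splits of 4 males. Both tests ran on all 21052 genes with Benjamini-Hochberg adjustment at 0.05, and those of F against D were tested on simulated data, where all 200 changed genes reached the smallest p. The spread is that between these males. Alternatives were exon and UTR peaks only, either gene rule alone, peaks of at least 2 times the lowest score, repeats left out, summed scores, overlap over 50% of both peaks, and each male left out. Named were all members with each transcript-class peak, their highest other peak and those that recurred, and, of the other pathway genes, those with a transcript-class peak in at least 2 libraries and the 5 with the highest. A gene that this rule names is not reported here. The members and lists were chosen with earlier results of these data known.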

Additional observations from a re-analysis of the deposited data

How the results depend on the processing

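Of the members with a transcript-class peak, F3 had 1 by the nearest gene alone, against 4, and D3 had 0 with exon and UTR peaks only and 1 by the annotated transcript alone, against 2. By construction, the nearest-gene rule drops exon peaks that lie closer to a miRNA or antisense start. The 7 members with a higher mean in F numbered 4 to 7 with a male left out, the lowest without male 1. Overlapping member peaks numbered 9 when 50% of both peaks had to be shared, against 20. Without the replicate block, the exact test over 70 splits gave p = 0.429 for Dnmt1, Dnmt3a, Tet3 and Alyref. The number with a higher mean in F stayed at 7 by construction, because the block does not alter the means. The difference of HFD minus ND in F reversed when single males were left out: for Dnmt1 and Alyref it ranged from -0.394 without male 3 and -0.293 without male 2 to 0.596 without male 4, against 0.101 over all males, and for Dnmt3a and Tet3 from -1.08 without male 2 to 0.202 without male 4 and 0.495 without male 1, against -0.293. For Alyref the summed score per 1000000 of the list's summed score gave a difference of -2.61. The cause was not tested. The other 44 alternative values of these counts stayed within 1.5 times. Those of F4, F2, D4, D1 and D2 were fixed at 0, since each alternative keeps only a part of the peaks of the main rule. With 2 males per diet and lists of 3427 to 49918 peaks, no difference between diets could pass the test.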
